A study of Mus musculus with 22 samples.

Results

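The iron and copper handling genes Slc40a1, Tfrc, Slc11a2, Steap4, Cp, Trf, Fth1, Hamp and Hmox1 were followed in the hypothalamus of mice given a bacterial stimulus. They were taken by symbol from the annotation of the array, and each was measured by 1 probe set, so they are 9 of the 19935 genes tested. Iron enters brain cells as transferrin iron through the transferrin receptor or, after reduction, through metal transporters; it is stored in ferritin and leaves through ferroportin with the help of copper ferroxidases that oxidise it for transferrin. The liver hormone hepcidin binds ferroportin and removes it from the cell surface. During infection interleukin-6 (IL-6) raises hepcidin in liver through the transcription factor STAT3, and iron in plasma falls, which withholds it from microbes.

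The arrays measured RNA of the hypothalamus, the region that controls body temperature, in male C57bl6 mice aged 9 to 12 weeks that were labelled IL-6 KO or were wild-type (WT) littermates. Each mouse was given lipopolysaccharide (LPS), a cell wall component of Escherichia coli, at 120 µg/kg or saline into the peritoneal cavity, and tissue was taken 3 h later after perfusion of the circulation with saline. There were 7 arrays from KO mice after LPS, 4 from KO mice after saline, 7 from WT mice after LPS and 4 from WT mice after saline. The labels give no promoter or cell type for the deletion, which is thus not stated to be limited to any cell, and they do not say that each array is a separate mouse, so the p-values measure the spread between arrays. The question named by the study was whether gene differences between LPS-treated KO and WT mice bear on the fever that the KO mice lack.

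Each value below is a log2 difference from the median of the 22 arrays for that gene. The deposited table was centred in this way, so levels are lost and genes cannot be ranked by how strongly they are expressed. The targeted gene Il6 lay between -0.01 and 0.61 in KO arrays after LPS and between -0.16 and -0.08 in KO arrays after saline, against -0.10 to 0.28 in WT arrays after LPS and -0.17 to -0.11 in WT arrays after saline. Its KO minus WT difference after LPS was 0.17 ± 0.07 (SE, limma adjusted p = 0.397), so this probe set did not tell the genotypes apart. Il6 rose after LPS in the arrays labelled KO (0.36, adjusted p = 0.0193), and its difference in WT was 0.21 (adjusted p = 0.457), so KO and WT below are names taken from the labels. A probe set outside the altered part of a gene checks nothing, and the labels do not give that part. Of 16 hypothalamic marker genes 15 had a probe set, but whether they were expressed cannot be read from centred values. Some arrays stood apart in Ttr, a choroid plexus gene that reached 4.62 in WT saline replicate 1, and in the pituitary hormone genes Gh and Prl, which reached 3.96 and 2.90 in KO saline replicate 2.

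Of the 9 members 5 have a RefSeq promoter window, and Slc40a1, Slc11a2, Trf and Hmox1 have none. Promoter sequences are shown for Steap4 and Cp, the members that rose after LPS, and for Hamp, the best known target of IL-6 among these genes. Each is the 250 bases before the RefSeq transcription start (assembly GRCm38.p6), 5′ to 3′ on the strand of the gene, with matches to the motifs named below in capitals. They lie at chr5:7960222-7960471 on the plus strand for Steap4, at chr3:19956999-19957248 on the plus strand for Cp and at chr7:30944030-30944279 on the minus strand for Hamp.
Steap4: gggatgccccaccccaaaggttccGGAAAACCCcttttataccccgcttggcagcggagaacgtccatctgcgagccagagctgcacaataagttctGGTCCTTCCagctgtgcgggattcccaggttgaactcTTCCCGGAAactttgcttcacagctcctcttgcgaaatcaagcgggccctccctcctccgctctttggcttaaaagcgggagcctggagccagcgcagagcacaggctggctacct
Cp: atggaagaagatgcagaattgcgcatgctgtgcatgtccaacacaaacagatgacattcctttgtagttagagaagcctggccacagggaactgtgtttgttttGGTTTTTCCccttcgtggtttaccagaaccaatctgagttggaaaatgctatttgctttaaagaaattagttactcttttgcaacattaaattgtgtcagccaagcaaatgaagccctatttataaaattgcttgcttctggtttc
Hamp: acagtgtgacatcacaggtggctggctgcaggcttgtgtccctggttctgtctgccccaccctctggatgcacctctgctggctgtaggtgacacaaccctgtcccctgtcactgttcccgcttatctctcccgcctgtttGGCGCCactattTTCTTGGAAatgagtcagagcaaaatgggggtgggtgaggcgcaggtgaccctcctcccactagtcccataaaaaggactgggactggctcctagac

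The motifs were TTCNNNGAA for STAT factors, GGNNNTTCC for NF-kB, TGACNNNGC for the antioxidant response element, GGCGCC for the BMP response element and ACGTG for the core of the hypoxia response element, searched on both strands of windows from 250 bases before to 50 bases after a start. The Steap4 window held the STAT match TTCCCGGAA starting 116 bases before the start, the NF-kB match GGTCCTTCC starting 153 bases before it and a further NF-kB match on the opposite strand, printed as GGAAAACCC, starting 226 bases before it. The Cp window shown held the NF-kB match GGTTTTTCC starting 146 bases before the start, and a further Cp window, not shown, held no match. The Hamp window held the STAT match TTCTTGGAA starting 97 bases before the start and the BMP match GGCGCC starting 109 bases before it; in liver cells, sites of both kinds are known to carry the responses of hepcidin to IL-6 and to bone morphogenetic proteins. These short motifs are common: among 32851 promoter windows, 8.3% held the STAT motif, 18.5% the NF-kB motif and 11.9% the BMP motif. The antioxidant motif, held by 12.4% of windows, and the hypoxia motif, held by 19.6%, had no match in the 3 sequences shown. Tfrc, a member that was lower after LPS averaged over the genotypes, has windows that are not shown. They held the NF-kB match GGCGCTTCC starting 96 bases before a start and the BMP match GGCGCC starting 89 bases before a start. The Tfrc windows overlap and share the same hypoxia match ACGTG, which starts 2 bases before the earlier start and 228 bases before the later start. The windows of Fth1, also not shown, held no match to any of the motifs. A match is a string of letters and not a measured site. The printed matches do not overlap each other.

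Ferroportin, encoded by Slc40a1 on chromosome 1, is the exporter that releases iron from cells, and its RNA fell after LPS in both genotypes. In KO mice after LPS it lay between -0.19 and 0.45 with a median of -0.09, against 0.88, 0.91, 0.54 and 0.74 in the 4 KO arrays after saline. In WT mice after LPS it lay between -0.49 and 0.05 with a median of -0.23, against 0.64, 0.86, 0.83 and 0.44 in the 4 WT arrays after saline. In both genotypes every LPS array lay below every saline array. The LPS minus saline difference was -0.78 ± 0.12 in KO (SE, n = 7 and 4; limma adjusted p = 0.000269), or 1.71-fold lower, and -0.93 ± 0.12 in WT (adjusted p = 1.63e-05), or 1.91-fold lower. Among the 19935 genes it was the fourth lowest difference in KO and the third lowest in WT. Within arrays numbered 1 to 11 in the titles the difference was -1.07 in KO, where 1 array was given saline, and -1.03 in WT. Within arrays numbered 12 to 22 it was -0.66 in KO and -0.65 in WT, and neither was called. There 3 KO arrays and 1 WT array were given saline.

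Endothelial genes were lower on the same arrays. Of 15 measured endothelial markers, 9 were called lower after LPS in KO, 9 in WT and none higher in either. The mean of the whole list lay between -0.11 and 0.05 in KO arrays after LPS and between 0.23 and 0.41 in KO arrays after saline. It lay between -0.16 and -0.07 in WT arrays after LPS and between 0.20 and 0.34 in WT arrays after saline. Over the 22 arrays, which share the LPS difference, the genes with the pattern most like Slc40a1 were the angiopoietin receptor gene Tek (Pearson r = 0.946), the transporter gene Slco1a4 (r = 0.931) and the VEGF receptor gene Kdr (r = 0.912), all 3 of them on the endothelial list. Once the 4 group means were taken out, the closest genes were Ctag2 (r = 0.722), Klhl8 (r = 0.688) and Bend5 (r = 0.680). In whole tissue, fewer cells of a type and less RNA per cell cannot be told apart, and the part of the endothelial list in the Slc40a1 difference was not tested.

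Tfrc on chromosome 16 encodes the transferrin receptor, the main door for transferrin iron at the blood-brain barrier and on neurons. In KO mice after LPS it lay between -0.44 and 0.17 with a median of 0.0013, against 0.31, 0.37, 0.41 and 0.19 in KO arrays after saline, so those groups did not overlap. In WT mice after LPS it lay between -0.72 and 0.13 with a median of -0.16, against -0.02, -0.10, 0.17 and 0.21 in WT arrays after saline, and those groups overlapped. The LPS difference was -0.41 ± 0.13 in KO (SE, limma adjusted p = 0.183) and -0.26 ± 0.13 in WT (adjusted p = 0.780), and neither passed the test. Averaged over the genotypes it was -0.34 ± 0.09 with an adjusted p of 0.0381, which passed the test. That call was lost in 12 of 22 fits with 1 array left out, with differences of -0.35 to -0.31 and adjusted p-values of 0.0508 to 0.101: those without KO LPS replicate 1, 2 or 7, KO saline replicate 1, 2 or 3, WT LPS replicate 1, 2 or 4, or WT saline replicate 1, 3 or 4.

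Tfrc also differed by the number that the titles give an array. Arrays numbered 12 to 22 were 0.30 ± 0.08 above arrays numbered 1 to 11 within the groups (SE, limma adjusted p = 0.00636), and 21.5% of all genes differed in this way. With the block of array numbers as a term, the LPS difference of Tfrc was -0.40 in KO with a limma adjusted p of 0.0331. With that term it was -0.27 in WT (adjusted p = 0.289) and -0.34 averaged over the genotypes (adjusted p = 0.00351). The averaged difference was -0.51 within arrays 1 to 11, which hold 1 KO saline array, and was called there. It was -0.22 within arrays 12 to 22, which hold 1 WT saline array, and was not called. The labels do not say what the numbers stand for. The genes most like Tfrc over the 22 arrays were Smurf2 (r = 0.932), Maoa (r = 0.923) and Zadh2 (r = 0.915), and within groups Gmfb (r = 0.950), Srsf5 (r = 0.939) and Brox (r = 0.930). For the values within groups, here and for the other members, only the group means were taken out, so differences by array number remain in them.

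Slc11a2 on chromosome 15 encodes the divalent metal transporter DMT1, which moves ferrous iron out of endosomes into the cytosol. It lay between -0.09 and 0.13 in KO arrays after LPS, against -0.04 to 0.13 in KO arrays after saline, and between -0.34 and 0.09 in WT arrays after LPS, against -0.12 to -0.0037 in WT arrays after saline, so the groups overlapped. Its LPS difference averaged over genotypes was 0.0055 with a 95% interval of -0.09 to 0.10 (limma adjusted p = 0.994).

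Steap4 on chromosome 5 encodes a metalloreductase that reduces ferric iron and cupric copper for uptake, and it rose after LPS in both genotypes. In KO mice after LPS it lay between -0.26 and 0.26 with a median of 0.15, against -0.53, -0.54, -0.65 and -0.56 in KO arrays after saline. In WT mice after LPS it lay between 0.21 and 0.67 with a median of 0.39, against -0.38, -0.42, -0.23 and -0.44 in WT arrays after saline. The LPS and saline arrays did not overlap in WT, and in KO the lowest LPS array, at -0.26, stood above the highest saline array, at -0.53. The LPS difference was 0.60 ± 0.10 in KO (SE, limma adjusted p = 0.000496), or 1.51-fold higher, and 0.80 ± 0.10 in WT (adjusted p = 6.82e-06), or 1.74-fold higher. Within arrays 1 to 11 it was 0.78 in KO, on 1 KO saline array, and 0.80 in WT. Within arrays 12 to 22 it was 0.52 in KO and 0.81 in WT, on 1 WT saline array. The last of these did not pass the test.

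Over the 22 arrays the genes most like Steap4 were Tmem252 (r = 0.976), the kinase anchor gene Akap12 (r = 0.964) and the transglutaminase gene Tgm2 (r = 0.960). With the 4 group means taken out they were Lcn2 (r = 0.896), which encodes a protein that binds iron-carrying siderophores, Sema4c (r = 0.887) and Gpr84 (r = 0.875). Lcn2 itself rose after LPS by 2.31 in KO (limma adjusted p = 4.37e-08) and by 3.39 in WT (adjusted p = 4.09e-11). In KO the adjusted p was at most 7.84e-07 over 22 fits with 1 array left out. After a further quantile normalization, applied to the centred values, the KO difference of Lcn2 was 0.86 and was not called (adjusted p = 0.694). Its KO minus WT difference after LPS was -1.04 (adjusted p = 0.0164). That genotype call was lost without WT LPS replicate 3 or 4 or KO LPS replicate 6 (adjusted p = 0.0570 to 0.0642). It was also lost with the block of array numbers as a term (-0.88, adjusted p = 0.0722), in arrays 1 to 11 (-0.74) and arrays 12 to 22 (-0.95) alone, without the 2 arrays highest for Gh and Prl (adjusted p = 0.0551), in a fit of the compared groups (adjusted p = 0.154) and after a further quantile normalization (-1.43, adjusted p = 0.0854).

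Ceruloplasmin, encoded by Cp on chromosome 3, is the copper protein that oxidises ferrous iron as it leaves the cell, and in the brain astrocytes carry a form of it anchored to the membrane. In KO mice after LPS it lay between -0.33 and 0.62 with a median of 0.28, against -0.39, -0.69, -0.07 and -1.21 in KO arrays after saline. In WT mice after LPS it lay between -0.12 and 1.05 with a median of 0.41, against -0.87, -0.33, -0.44 and -0.75 in WT arrays after saline. The groups overlapped in KO, where 1 LPS array at -0.33 lay below the highest saline array at -0.07, and did not overlap in WT. The LPS difference was 1.08 ± 0.22 in WT (SE, limma adjusted p = 0.00476), or 2.11-fold higher, and passed the test. In KO it was 0.82 ± 0.22 with an adjusted p of 0.0723. It was called in 2 of 35 alternative fits, without KO LPS replicate 4 (0.91, adjusted p = 0.0272) and without KO saline replicate 3 (0.99, adjusted p = 0.0292). Over the 35 fits the KO difference ranged from 0.60 to 0.99, with adjusted p-values up to 0.435. Within arrays 1 to 11 the LPS difference was 0.77 in KO, on 1 KO saline array, and 1.08 in WT. Within arrays 12 to 22 it was 0.82 in KO and 1.10 in WT, on 1 WT saline array. Of these only the WT difference in arrays 1 to 11 was called.

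Cp had the widest spread within groups of the 9 genes, and the levels of fibroblast and pericyte genes are given beside it. Of the 12 markers of pericytes and perivascular fibroblasts none was called after LPS in either genotype. Their mean was -0.19 in KO saline replicate 4, the array lowest in Cp at -1.21, and 0.19 in KO saline replicate 3, the saline array highest in Cp. It was 0.11 in WT LPS replicate 4, where Cp was 1.05, and -0.14 and -0.13 in WT LPS replicates 5 and 6, where Cp was -0.12 and -0.05. Other arrays did not pair in this way: the mean was -0.05 in WT LPS replicate 7, where Cp was 0.75, and -0.07 in WT LPS replicate 2, where it was 0.38. It was -0.06 in KO LPS replicate 4, the LPS array lowest in Cp at -0.33, and -0.05 in WT saline replicate 1, where Cp was -0.87. The genes most like Cp over the 22 arrays were Rhoj (r = 0.958), Errfi1 (r = 0.942) and Ifitm3 (r = 0.940). Within groups they were the matrix gene Dcn (r = 0.927), which is 1 of the 12 markers, Fstl1 (r = 0.924) and Cyp1b1 (r = 0.919). The part of these cells in the Cp values was not tested.

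**Figure D1:**
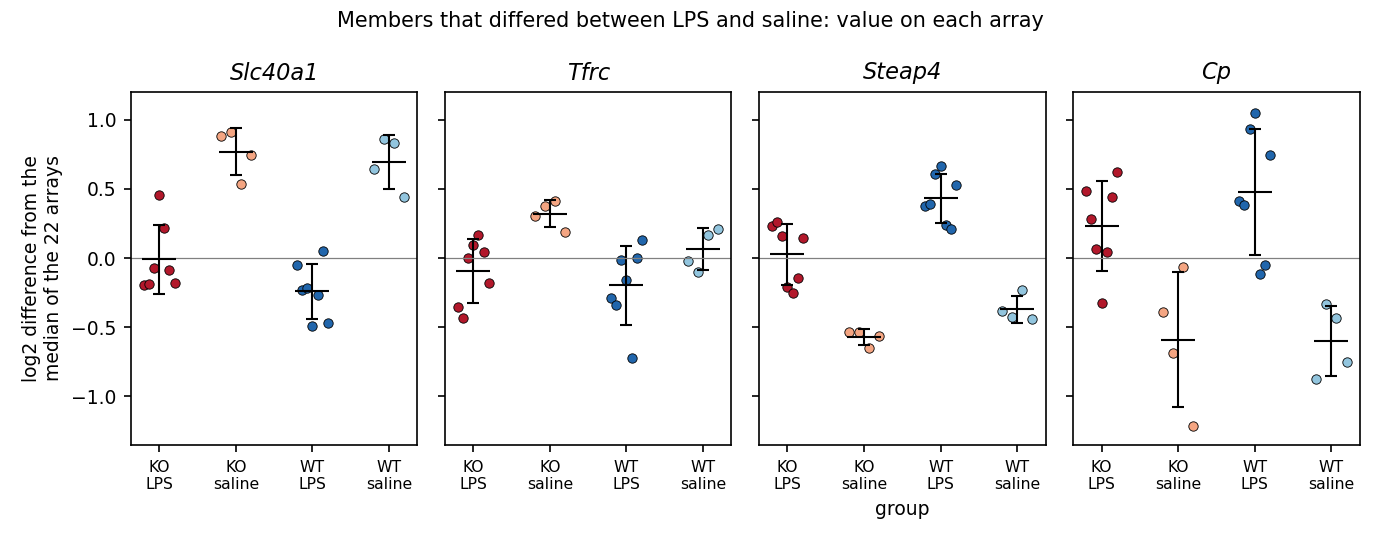
The value of each array (points) for Slc40a1, Tfrc, Steap4 and Cp, as a log2 difference from the median of the 22 arrays, by group, with the group mean and SD as bars. In WT arrays every LPS point lies below every saline point for Slc40a1 and above every saline point for Steap4 and Cp, while for Tfrc the WT points overlap.

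Transferrin, encoded by Trf on chromosome 9, carries ferric iron in plasma and is made in the brain mainly by oligodendrocytes. It lay between -0.17 and 0.30 with a median of 0.06 in KO arrays after LPS, against 0.09, 0.23, 0.02 and -0.06 in KO arrays after saline. It lay between -0.57 and 0.13 with a median of -0.10 in WT arrays after LPS, against -0.26, 0.13, -0.09 and -0.14 in WT arrays after saline. The groups overlapped, and the LPS difference averaged over genotypes was -0.02 with a 95% interval of -0.18 to 0.14 (limma adjusted p = 0.982). The lowest Trf array, WT LPS replicate 6 at -0.57, also had the lowest mean of 14 oligodendrocyte markers, at -0.29. The KO LPS replicates 4 and 7, at 0.28 and 0.30, were the highest for Trf, with a marker mean of 0.29 and 0.12. Of these markers none was called after LPS in KO or in WT and 1, Opalin, was called lower averaged over the genotypes (-0.36, adjusted p = 0.0149); their part in the Trf values was not tested.

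Fth1 on chromosome 19 encodes the ferritin heavy chain, which oxidises and stores iron. It lay between -0.14 and 0.18 in KO arrays after LPS, against -0.0056 to 0.12 in KO arrays after saline, and between -0.18 and 0.07 in WT arrays after LPS, against -0.18 to 0.0056 in WT arrays after saline, so the groups overlapped. The LPS difference averaged over genotypes was 0.0087 with a 95% interval of -0.08 to 0.09 (limma adjusted p = 0.987). Ferritin and the transferrin receptor are known to be set largely through iron regulatory proteins that bind their RNA, which for ferritin acts on translation and is not read by an array.

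Hamp on chromosome 7 encodes hepcidin, the hormone that closes iron export during infection. It lay between -0.15 and 0.02 in KO arrays after LPS, against -0.08 to 0.06 in KO arrays after saline, and between -0.11 and 0.11 in WT arrays after LPS, against -0.06 to 0.18 in WT arrays after saline, so the groups overlapped. The LPS difference averaged over genotypes was -0.02 with a 95% interval of -0.10 to 0.05 (limma adjusted p = 0.956). Since the table holds no levels, it does not say whether this probe set was above background in the hypothalamus.

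Hmox1 on chromosome 8 encodes haem oxygenase 1, the inducible enzyme that frees iron from haem. It lay between -0.05 and 0.24 in KO arrays after LPS, against -0.12 to 0.09 in KO arrays after saline, and between -0.05 and 0.08 in WT arrays after LPS, against -0.06 to 0.18 in WT arrays after saline, so the groups overlapped. The LPS difference averaged over genotypes was 0.03 with a 95% interval of -0.05 to 0.11 (limma adjusted p = 0.948). These are RNA differences at 1 time, 3 h after injection.

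**Figure D2:**
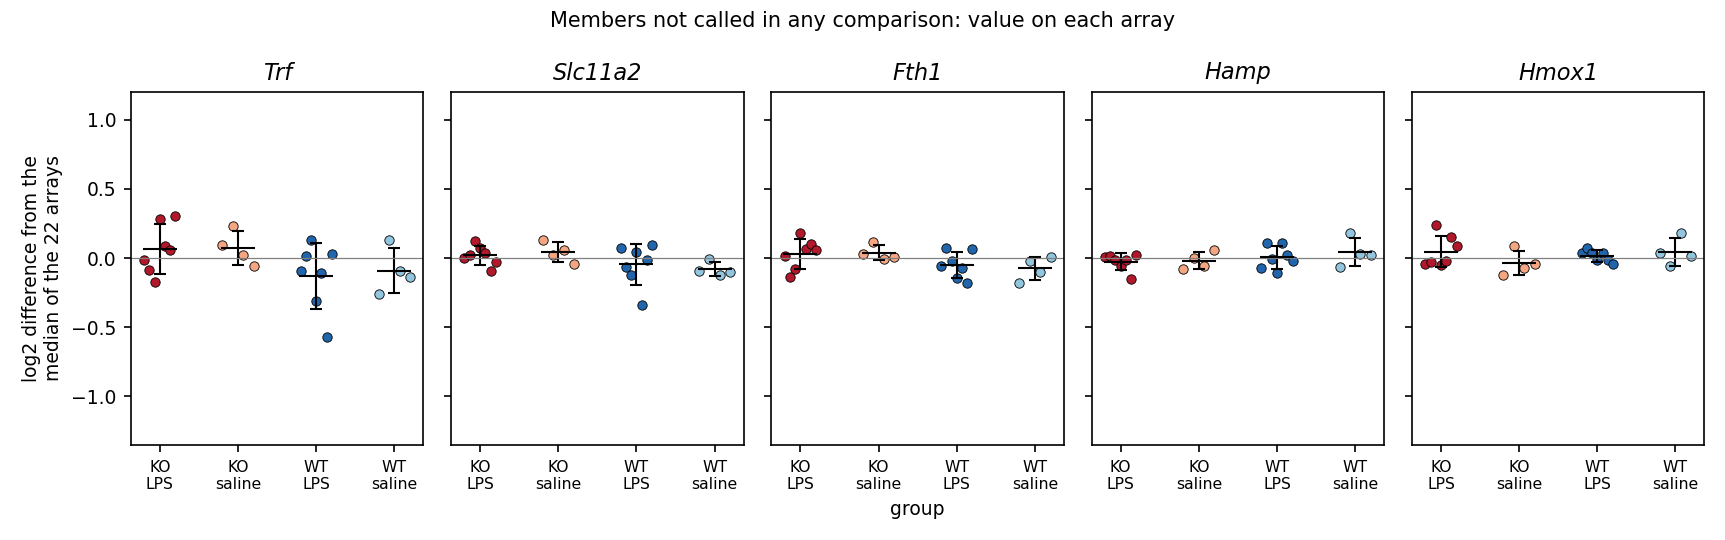
The value of each array (points) for Trf, Slc11a2, Fth1, Hamp and Hmox1, as a log2 difference from the median of the 22 arrays, by group, with the group mean and SD as bars. The groups overlap for all 5 genes, and the lowest point is Trf in WT LPS replicate 6 at -0.57.

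In KO mice 2 of the 9 genes were called after LPS, Slc40a1 lower and Steap4 higher, where 1.34% of all genes were called, 1.08% higher and 0.256% lower. In WT mice 3 of the 9 were called, Slc40a1 lower and Steap4 and Cp higher, where 1.8% of all genes were called, 1.42% higher and 0.376% lower. Averaged over the genotypes 4 of the 9 were called, the fourth being Tfrc, where 2.76% of all genes were called, 1.99% higher and 0.773% lower. The 9 genes were chosen with earlier results of these arrays known, so these shares are a description. The LPS and saline arrays did not overlap for 3 of the 9 genes in KO (1.66% of all genes) and for 3 in WT (2.34% of all genes).

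After LPS none of the 9 genes was called between KO and WT, where 0.0401% of all genes, or 8 genes, were called, 4 (0.0201%) in each direction, and 2267 genes had an unadjusted p under 0.05. Steap4 came closest: its 7 KO arrays, with a median of 0.15, stood against 7 WT arrays with a median of 0.39, and the groups overlapped, since 2 KO arrays at 0.23 and 0.26 lay above the lowest WT array at 0.21. The KO minus WT difference after LPS was -0.41 ± 0.08 (SE, 95% interval -0.58 to -0.23), with a limma adjusted p of 0.0727 and an unadjusted p of 6.56e-05. It was called without KO LPS replicate 1 (-0.44, adjusted p = 0.0275), without KO LPS replicate 2 (-0.44, adjusted p = 0.0460) and without WT LPS replicate 6 (-0.44, adjusted p = 0.0462). With the block of array numbers as a term it was -0.34 (adjusted p = 0.331), and it was -0.21 within arrays 1 to 11 and -0.43 within arrays 12 to 22. Of the 7 KO arrays after LPS 5 are numbered 12 to 22, against 2 of the 7 WT arrays after LPS.

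The other members differed less between the genotypes after LPS. The KO minus WT difference was 0.23 ± 0.10 for Slc40a1 (SE, limma adjusted p = 0.417), 0.20 ± 0.09 for Trf (adjusted p = 0.434) and -0.25 ± 0.19 for Cp (adjusted p = 0.617). It was 0.10 for Tfrc, 0.08 for Fth1, 0.07 for Slc11a2, -0.03 for Hamp and 0.03 for Hmox1, with adjusted p-values between 0.548 and 0.844. Within arrays 1 to 11 and within arrays 12 to 22 the difference was 0.058 and 0.28 for Slc40a1, 0.023 and 0.38 for Trf, and -0.15 and -0.18 for Cp, with no call. For Tfrc the difference was -0.023 with the block of array numbers as a term. After saline none of the 9 genes was called between KO and WT, where 0.00502% of all genes, or 1 gene, were called. The saline groups did not overlap for Steap4 (2.97% of all genes), where all 4 KO arrays lay below all 4 WT arrays and the difference was -0.20 ± 0.11 (SE, limma adjusted p = 0.840). Of the KO saline arrays 3 are numbered 12 to 22, against 1 of the WT saline arrays. Within the groups Steap4 was -0.15 ± 0.07 in arrays 12 to 22 relative to arrays 1 to 11 (SE, limma adjusted p = 0.115). Its saline difference ranged from -0.22 to -0.11 over the alternative fits.

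Whether the LPS response itself differed between the genotypes was tested as the LPS difference in KO minus that in WT. None of the 9 genes and 0% of all genes were called by limma, and 327 genes had an unadjusted p under 0.05. The difference was 0.16 for Slc40a1 with a 95% interval of -0.20 to 0.51, and -0.20 for Steap4 with an interval of -0.49 to 0.08. It was -0.26 for Cp with an interval of -0.90 to 0.38, and -0.15 for Tfrc with an interval of -0.52 to 0.22. So the call of Cp in WT and not in KO is no evidence that its response differed.

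**Figure D3:**
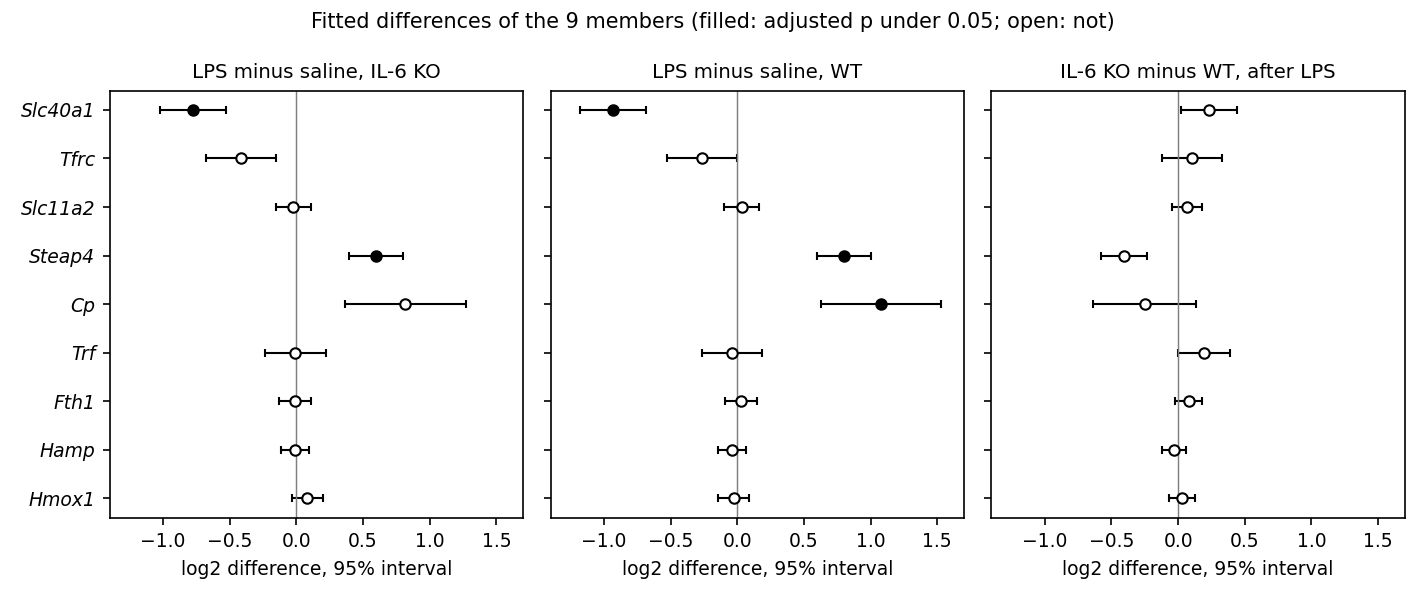
Fitted log2 differences of the 9 genes with 95% intervals (x axis) for LPS minus saline in KO, LPS minus saline in WT, and KO minus WT after LPS; filled points have an adjusted p under 0.05. Slc40a1 is lower and Steap4 higher after LPS in both genotypes, Cp is filled in WT, and no point is filled between KO and WT, where Steap4 at -0.41 lies farthest from 0.

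Among arrays of mice given LPS, the 3 genes with the largest responses were set against each other, 3 pairs in each genotype and 6 relations in all, a choice made after their values were seen. In the 7 WT arrays Steap4 and Cp went together with Pearson r = 0.992 (two-sided exact permutation p = 0.000794, adjusted 0.00476) and Spearman rho = 0.929 (exact permutation p = 0.00675), and r was 0.985 without the 2 arrays farthest from the Steap4 median. In the 7 KO arrays the same pair had r = 0.545 (exact permutation p = 0.199, adjusted 0.199) and rho = 0.50 (exact permutation p = 0.267), and r was -0.18 without the 2 farthest arrays. The difference between the genotypes in this relation was not tested.

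Slc40a1 was low on the KO LPS arrays where the other genes were high. In the 7 KO arrays its r was -0.814 with Steap4 (two-sided exact permutation p = 0.0123, adjusted 0.0246; rho = -0.821, p = 0.0341) and -0.883 with Cp (p = 0.00575, adjusted 0.0173; rho = -0.821, p = 0.0341). Without the 2 farthest arrays r was -0.647 and -0.567. In the 7 WT arrays r was -0.695 with Steap4 (exact permutation p = 0.0895, adjusted 0.134; rho = -0.643, p = 0.139) and -0.629 with Cp (p = 0.144, adjusted 0.173; rho = -0.429, p = 0.354), and without the 2 farthest arrays it was -0.265 and -0.193. The KO LPS replicates 4 and 5 had the highest Slc40a1, at 0.45 and 0.22, and the lowest Steap4, at -0.21 and -0.26; replicate 4 had a Ttr value of 1.98, and replicate 5 had Gh and Prl values of 2.20 and 1.66. Within the array number blocks r is given as a description with no test. Over the 5 KO LPS arrays numbered 12 to 22 it was -0.742 for Slc40a1 and Steap4, -0.897 for Slc40a1 and Cp, and 0.490 for Steap4 and Cp. Over the 5 WT LPS arrays numbered 1 to 11 it was -0.520, -0.422 and 0.991 for the same pairs. The remaining block of each group holds 2 arrays and gives no r.

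**Figure D4:**
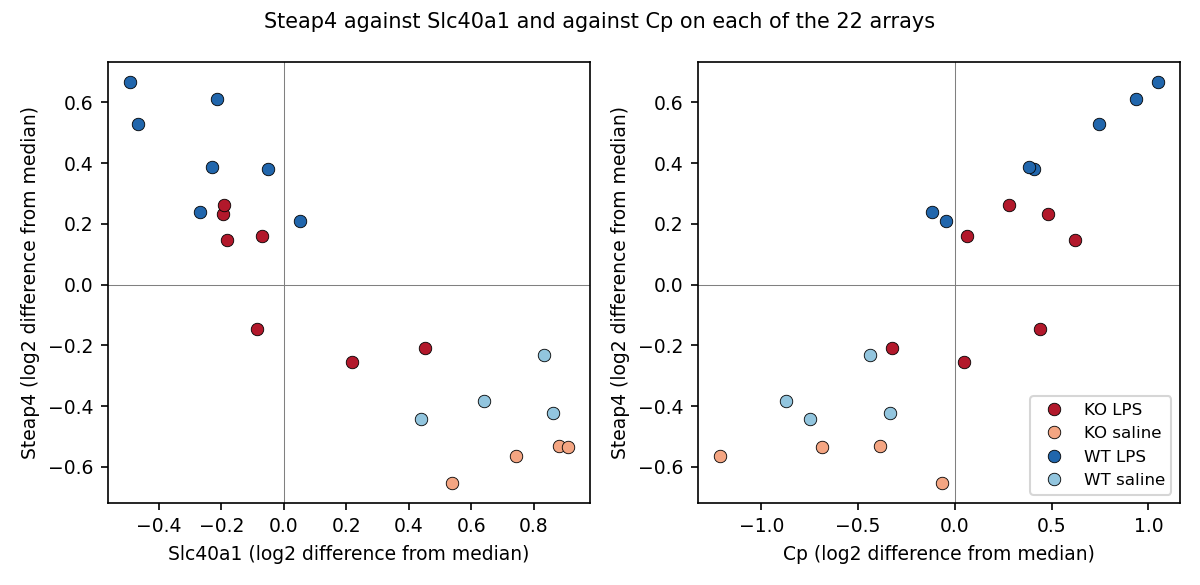
Steap4 (y axis) against Slc40a1 (x axis, left) and against Cp (x axis, right), each axis a log2 difference from the median of the 22 arrays and each point 1 array, coloured by group. The WT LPS arrays lie close to a line for Steap4 and Cp (r = 0.992), the KO LPS arrays scatter more (r = 0.545), and within each genotype the saline arrays lie to the right of the LPS arrays in Slc40a1.

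The 9 genes sit in wider families, of which 93 of 99 listed genes were measured. Among the 84 measured genes that are not members, 2 were called after LPS in KO, which is 2.38% against 1.34% of all genes, and 4 in WT, which is 4.76% against 1.8%. The lists were chosen with earlier results known and got no test. The median difference of the 93 genes was -0.0087 in KO and -0.027 in WT, against -0.0089 and -0.011 for all genes.

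In import and export at the cell surface, 17 of 18 listed genes were measured, and averaged over the genotypes 3 were called higher and 2 lower. The higher ones were Lcn2, Steap4 and Heph, the gene of the membrane ferroxidase hephaestin, and the lower ones Slc40a1 and Tfrc. Heph rose by little, with a WT difference of 0.16 ± 0.04 (SE, limma adjusted p = 0.0389) that was lost in 10 of 22 fits with 1 array left out (adjusted p up to 0.315), those without WT LPS replicate 1, 2, 3, 6 or 7, WT saline replicate 2 or 4, KO saline replicate 2 or 3, or KO LPS replicate 7; in KO it was 0.10 (adjusted p = 0.610). The WT call was also lost without the 2 arrays highest for Gh and Prl (adjusted p = 0.0645) and in a fit of the compared groups (adjusted p = 0.179), and neither the WT nor the averaged difference of Heph was called in either block of array numbers alone (averaged, 0.097 with adjusted p = 0.409 in arrays 1 to 11, and 0.15 with adjusted p = 0.236 in arrays 12 to 22). Among the 8 carriers of iron, haem and haemoglobin only Cp was called, and it was higher.

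Of 10 genes for storage, iron chaperones and iron regulatory proteins none was called; the smallest p was that of the chaperone gene Pcbp1, with an averaged difference of -0.06 (limma adjusted p = 0.711). Of 15 genes for hepcidin and its regulators 1 was called lower, Id1, a target of bone morphogenetic protein signals, by -0.24 in KO (adjusted p = 0.00577; -0.18 and 0.0534 without KO saline replicate 1) and -0.26 ± 0.05 in WT (SE, adjusted p = 0.00143). Of 18 measured genes of haem synthesis, transport and degradation 1 was called higher, Nfe2l2, the gene of the oxidative stress regulator NRF2, by 0.34 ± 0.06 in WT (SE, adjusted p = 0.00142), with 0.21 in KO (adjusted p = 0.151). In arrays 12 to 22 alone Nfe2l2 was 0.35 in WT (adjusted p = 0.568), and its averaged call was lost in arrays 1 to 11 (0.21, adjusted p = 0.147) and in arrays 12 to 22 (0.31, adjusted p = 0.0951). The Id1 calls were lost in arrays 12 to 22 alone (-0.17 in KO, adjusted p = 0.447; -0.31 in WT, adjusted p = 0.448), and its KO call in a fit of the compared groups (adjusted p = 0.107). Of 10 measured genes for mitochondrial iron and iron-sulfur clusters none was called; Hscb, a co-chaperone of cluster transfer, had the smallest p with an averaged difference of -0.05 (adjusted p = 0.805). Of 17 measured copper genes Cp and Heph were called higher, and the copper importers, pumps and chaperones on the list were not called.

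**Figure D5:**
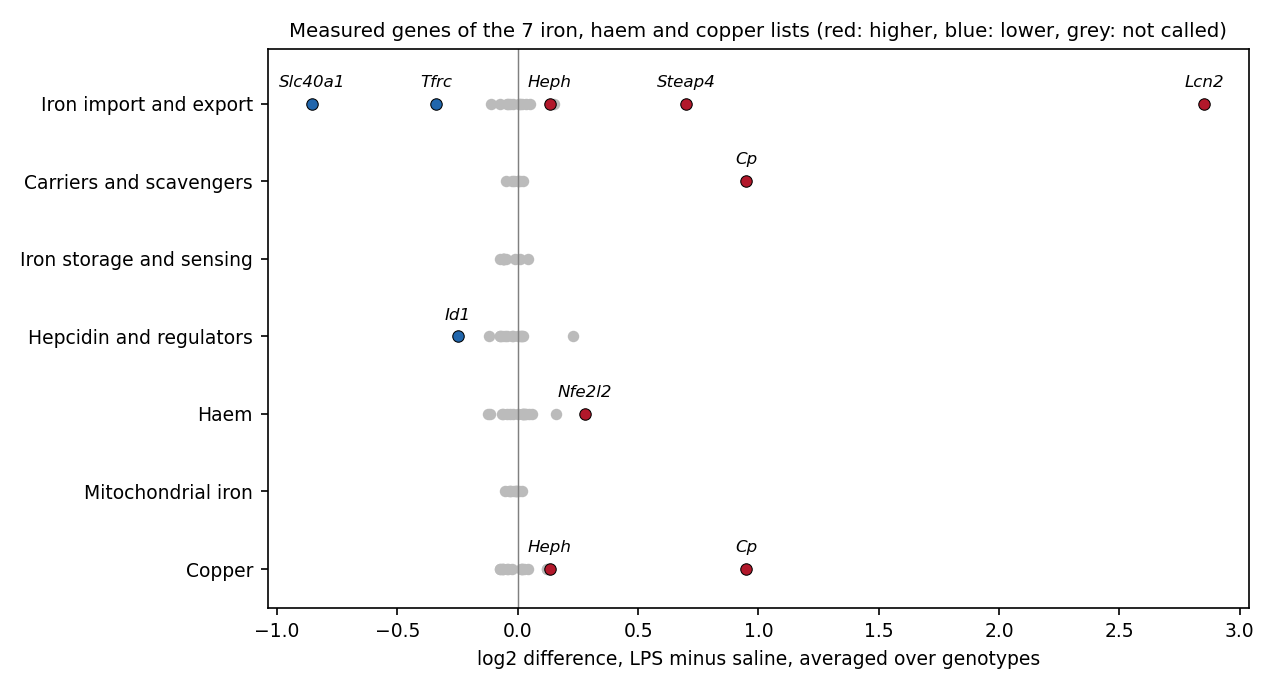
Log2 differences after LPS averaged over genotypes (x axis) for each measured gene of the 7 iron and copper lists (rows); red and blue points have an adjusted p under 0.05, higher and lower, and grey points do not. The coloured points farthest from 0 are Lcn2, Cp and Steap4 on the higher side and Slc40a1 on the lower side.

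Few markers of other cell types that a hypothalamus sample can hold were called after LPS. None of the measured markers of red blood cells (3), neutrophils and monocytes (11), choroid plexus (11), pituitary (9), astrocytes (12), neurons (10) or hypothalamus (15) was called in KO or in WT. Of 15 microglia and macrophage markers 1, Cx3cr1, was called lower in WT and none in KO. Averaged over the genotypes 3 markers outside the endothelial list were called, all lower: Cx3cr1 (-0.35, limma adjusted p = 0.000265), the oligodendrocyte marker Opalin (-0.36, adjusted p = 0.0149) and the astrocyte marker Sox9 (-0.23, adjusted p = 0.00225). The 2 arrays highest for Ttr, WT saline replicate 1 and WT LPS replicate 5, are both WT. Leaving them out cannot change an LPS difference in KO. Without them the LPS difference in WT was -0.94 for Slc40a1, 0.83 for Steap4 and 1.09 for Cp.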

How the data were processed

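The deposited log2 table covers 22 Affymetrix arrays and 28815 probe sets and was made by the authors with RMA, per the submitters' processing notes; the version and the genome build are not given in the sources used here. Each probe set's median over the arrays is 0 to within 7.02e-07, so the deposited values are differences, and neither a filter on dim genes nor a trend of variance with level could be used. The base of the logarithm is not stated and was taken as 2, since 99.9% of 619799 values between 0.001 and 0.5 in size are whole multiples, within 0.03, of the step of a single-precision number of the size of log2 RMA values. Precision is limited by the number of arrays.

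Of the probe sets, 21780 had 1 symbol, 1605 several and 5430 none; 21689 of the first matched the RefSeq table of GRCm38.p6 by gene ID. Probe sets of a gene were averaged, which gave 19935 genes. limma 3.58.1 in R 4.3.3 fitted 1 mean per group over the 22 arrays with empirical Bayes moderation, and 6 two-sided contrasts were adjusted over all genes (Benjamini-Hochberg), with adjusted p under 0.05 taken as a call. SE and 95% intervals come from this fit. It was tested on simulated arrays with independent noise and no difference by array number. That test does not cover the difference by array number seen here in 21.5% of all genes. Replicates were numbered in deposition order. The alternatives were the block of array numbers, omitted arrays, array weights, another normalization and other designs.

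The members, lists and tests were chosen with earlier results of these data known. The text names the 9 members, list genes called in any contrast or, in a list with none, the one with the smallest p, and for each called member the 3 genes most correlated with it. Promoters come from RefSeq. The sequences of the Tfrc windows and of a further Cp window, which had been planned, were left out for length, and their matches are given above.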

Additional observations from a re-analysis of the deposited data

How the results depend on the processing

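The 9 genes were recomputed under 13 alternatives and in 22 fits that each left out 1 array. No paired analysis was possible because the labels tie no array of a group to an array of another group. The LPS calls of Slc40a1 (KO, WT and averaged), of Steap4 in WT and of Cp in WT and averaged held under all of them except arrays 12 to 22 alone: Slc40a1 was -0.66 in KO, -0.65 in WT and -0.66 averaged, Steap4 0.81 in WT, and Cp 1.10 in WT and 0.96 averaged. The Steap4 calls in KO and averaged held under all. Several of these settings could change only the spread or the adjustment and not the difference itself. Each of the 9 genes has 1 probe set, so other ways of handling probe sets left its difference as it was. Leaving out an array of a group outside the contrast did so too. For averaged differences the fit of the compared groups is the main fit. The averaged Tfrc call was lost in arrays 12 to 22 alone (-0.22), without the 2 arrays highest for Gh and Prl (-0.34), after a further quantile normalization (-0.41) and when each probe set was tested (-0.34), and it ranged from -0.37 to -0.29 with 1 array left out. The LPS difference of Tfrc in KO was called with the block of array numbers (-0.40). With 1 array left out, that of Cp in KO ranged from 0.61 to 0.99 and the KO minus WT difference of Steap4 after LPS from -0.44 to -0.36, which was called with array weights (-0.46). The cause of these changes of call was not tested.

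Differences that were never called changed sign as follows. In arrays 1 to 11 alone the genotype difference in the LPS effect was -0.044 for Slc40a1, the KO minus WT difference after LPS was -0.091 for Tfrc, 0.0054 for Hamp, -0.016 for Fth1 and -0.073 for Hmox1, and the averaged LPS difference was 0.024 for Hamp, -0.018 for Fth1 and -0.064 for Slc11a2. In arrays 12 to 22 alone the genotype difference in the LPS effect was -0.016 for Slc40a1, the KO minus WT difference after LPS was -0.039 for Tfrc and -0.017 for Slc11a2, and the averaged LPS difference was -0.019 for Fth1. With the block as a term Tfrc was -0.023 between KO and WT after LPS. Without the 2 arrays highest for Ttr, Cp was -0.082 between KO and WT after saline and Fth1 -0.0068 averaged; without the 2 highest for Gh and Prl, Slc11a2 was -0.0061 and Trf 0.023 averaged, and Hmox1 -0.0016 between KO and WT after LPS. After a further quantile normalization Slc40a1 was -0.087, and with array weights Cp was -0.00065, both between KO and WT after saline. With 1 array left out the KO minus WT difference after saline ranged from -0.010 to 0.15 for Slc40a1 and from -0.16 to 0.22 for Cp, that after LPS from -0.0016 to 0.046 for Hmox1, and the averaged LPS difference from -0.0090 to 0.023 for Fth1, -0.0091 to 0.030 for Slc11a2 and -0.052 to 0.013 for Trf.

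Of the 9 genes, 1 was called in KO, 0 in WT and 1 averaged in arrays 12 to 22 alone, and 1 between KO and WT after LPS with array weights or, at most, with 1 array left out. Over all genes, arrays 12 to 22 alone gave 166 LPS calls in KO, 45 in WT and 209 averaged, and arrays 1 to 11 alone gave 145 in KO. Between KO and WT after LPS the calls numbered 2 with the block, 0 in either block alone, 2 without the 2 arrays highest for Gh and Prl, 1 in a fit of the compared groups, 16 after a further quantile normalization, 614 with array weights and 2 to 47 with 1 array left out. After saline they numbered 0 in either block alone, in a fit of the compared groups and after a further quantile normalization, and 0 to 2 with 1 array left out.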
